A study of Mus musculus with 2 samples.

Results

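The cells described here are fibroblasts that carried RNA of Tnmd (ENSMUSG00000031250) and Thbs4 (ENSMUSG00000021702), 2 genes best known from tendon. They were chosen by measured values: at least 2 UMIs of Tnmd, at least 1 of Thbs4, at least 1 of Col1a1 or Col1a2, and 0 of Tbx3 and of Acan, in cells with at least 1000 UMIs, at least 300 genes and at most 15% mitochondrial UMIs. A UMI is a tag that marks 1 captured RNA molecule; the deposited whole-number counts are taken as UMIs here, which the sources used here do not state. The rule found 305 cells of 23816 (1.28%). In mouse 1 they were 125 of 14136 cells, or 0.884% (95% Clopper-Pearson interval 0.737% to 1.05%), and in mouse 2 180 of 9680 cells, or 1.86% (1.60% to 2.15%). The intervals, here and below, cover counting error only, and the 2 libraries belong to 1 group, so the difference between the mice has no test.

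Single cells were profiled from tissue labelled olfactory epithelium of 2 wildtype male C57BL/6J mice, 1 library each, with no treatment named in the labels, which give no age either. The tissue was cut up and digested with enzymes before the cells were captured. The tables held 95844802 UMIs in mouse 1 and 86049057 in mouse 2. Omp, the defining gene of mature olfactory neurons, was nearly absent from the cells of both mice, with 19 and 43 UMIs over all cells, and the set of 5 olfactory neuron markers summed to 3.36 and 4.16 counts scaled to a total of 1e6 UMIs per group (CPM). Of the cell barcodes, 483 were cells in both mice; 4 members of mouse 1 and 6 of mouse 2 were among them, and no barcode was a member in both. Without the shared barcodes, 295 members remained.

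Tenocytes are the fibroblasts of tendons and ligaments. They lie in rows between bundles of collagen I, which bear pulling load, and they build these bundles with the help of small leucine-rich proteoglycans such as fibromodulin and with collagens that coat the fibril surface. Their development depends on the transcription factors Scleraxis (Scx) and Mohawk (Mkx), and the membrane protein tenomodulin, made from Tnmd, is a usual marker of the mature cell. Where tendon meets bone or cartilage, cells also make cartilage matrix.

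The values that chose the cells are given as a description. A member held a median of 4 Tnmd UMIs in both mice, with at most 41 in mouse 1 and 30 in mouse 2, and a median of 10 and 15 Thbs4 UMIs, with at most 305 and 253. Just inside the thresholds lay 37 and 34 members with exactly 2 Tnmd UMIs and 15 and 23 with exactly 1 Thbs4 UMI. Just outside lay 87 and 59 cells that met every other condition and had 1 Tnmd UMI, and 160 and 169 that had no Thbs4 UMI. A further 61 and 60 were left out for Acan alone, of which 26 and 28 had a single Acan UMI, and 22 and 16 for Tbx3 alone. Members held 18.5% of the Tnmd UMIs of all cells in mouse 1 and 32.6% in mouse 2, and 27.6% and 44.6% of the Thbs4 UMIs, so most RNA of both genes lay in other cells. Members were deeper than the average cell, with medians of 4722 and 6537 UMIs against 3909 and 5199 over all cells.

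Summed over members, Tnmd stood at 1073 CPM in mouse 1 (95% Poisson interval 997 to 1154) and 970 CPM in mouse 2 (916 to 1026). Thbs4, a matrix protein of tendon and muscle attachments, stood at 3718 and 4186 CPM. Thbs2, a matrix protein that limits vessel growth and shapes collagen fibrils, stood at 450 CPM in mouse 1 and 438 CPM in mouse 2. Cilp2, a matrix protein of cartilage and tendon, was at 418 and 603 CPM, and Abi3bp, which binds collagen, at 2238 and 1843 CPM. These label markers were present in most members: 68.0% and 65.6% had a UMI of Thbs2, 63.2% and 70.6% of Cilp2, and 93.6% and 93.3% of Abi3bp. They received no test, since the label names the cells by them.

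RNA that floats free in the suspension can be counted under every cell barcode, so Tnmd and Fmod were set beside 2 readings of it. For other genes such readings are given for some only. Barcodes with at most 50 UMIs, taken as free RNA, held Tnmd at 58.2 and 75.8 CPM. Endothelial cells, which line vessels and should lack Tnmd, had a Tnmd UMI in 11.8% of 442 cells in mouse 1 and 7.37% of 339 in mouse 2, at median depths of 5706 and 5873 UMIs. When each cell was thinned to 1000 UMIs, 59.2% and 58.3% of members kept a Tnmd UMI against 4.75% and 2.65% of endothelial cells. Members were chosen by Tnmd and endothelial cells were not, so this difference follows from the rule and is given as a description only. Fmod RNA was also plentiful outside the members: free RNA held 950 and 992 CPM, and 44.1% and 35.1% of endothelial cells had a UMI of it.

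The tenocyte genes that the rule did not use were present in these cells in both mice. Fmod (ENSMUSG00000041559) encodes fibromodulin, which steers the thickening of collagen fibrils, and was at 4590 CPM in mouse 1 and 4813 CPM in mouse 2. Kera (ENSMUSG00000019932), for keratocan, a proteoglycan of cornea and tendon, was at 545 and 612 CPM. Scx (ENSMUSG00000034161) was at 51.5 and 61.8 CPM, and Mkx (ENSMUSG00000061013) at 63.2 and 69.0 CPM. The mice lay close together for all 4 genes, and their 95% Poisson intervals overlapped. A Fmod UMI was found in 88.0% and 82.2% of members, a Kera UMI in 41.6% and 53.9%, a Scx UMI in 20% and 25.0%, and a Mkx UMI in 22.4% and 25.6%. In endothelial cells the shares were 3.85% and 3.83% for Kera, 3.17% and 2.65% for Scx, and 5.88% and 2.36% for Mkx. At least 2 of these 4 genes were found together in 58.4% of members in mouse 1 and 65.6% in mouse 2, and all 4 in 2 and 14 members. None of the 4 was found in 13 and 24 members.

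**Figure D1:**
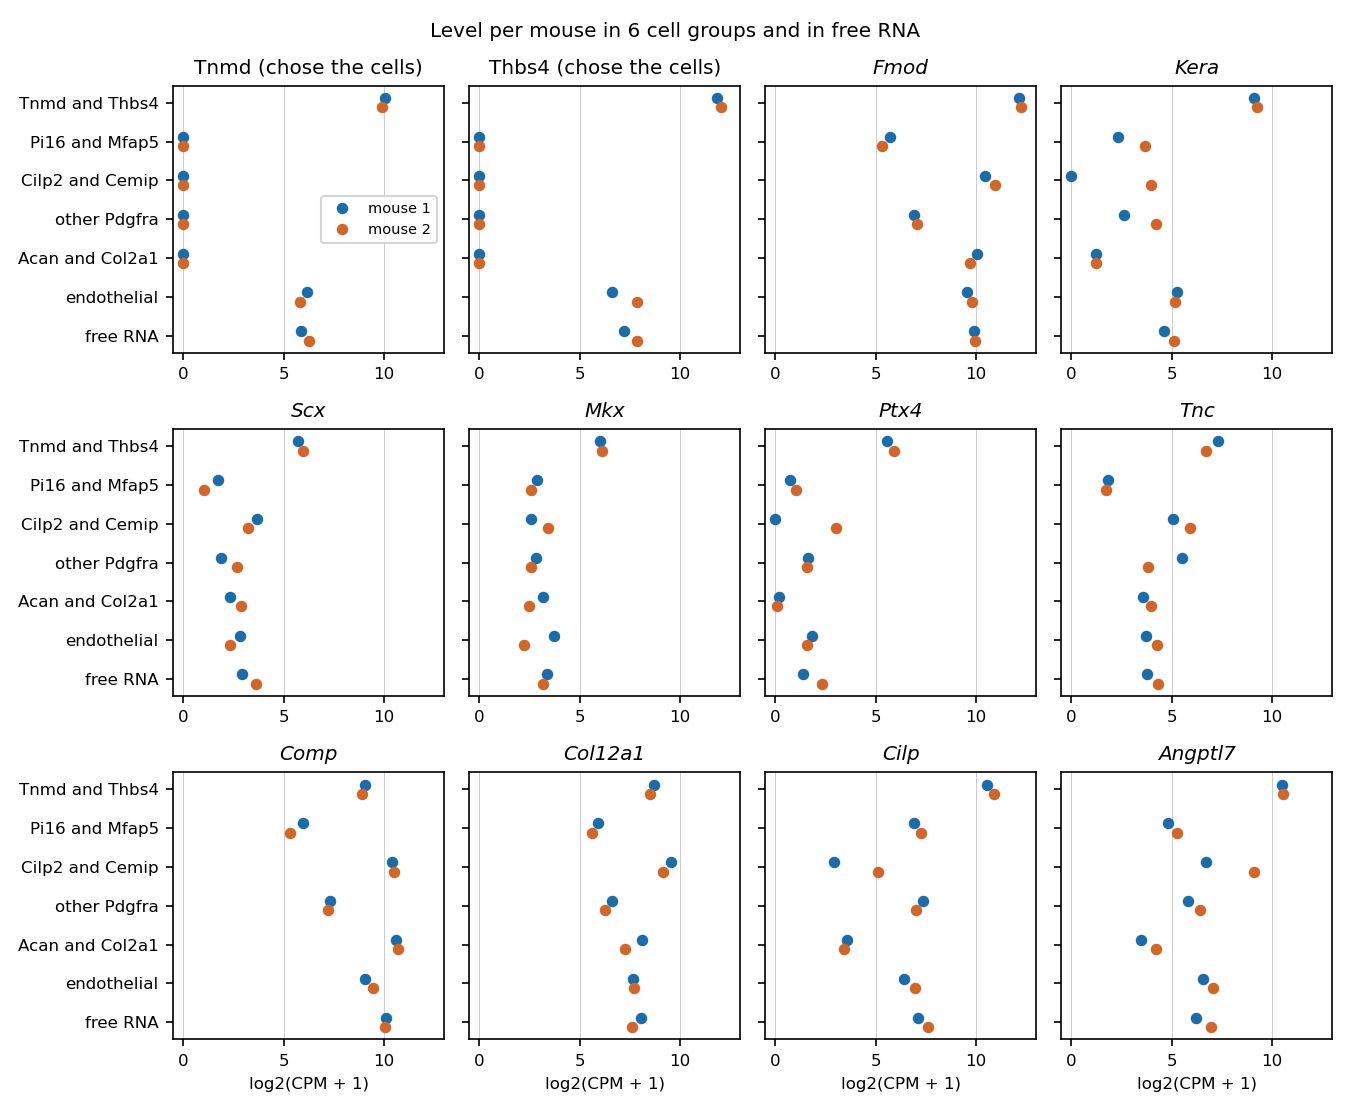
Level of 12 genes as log2(CPM + 1) in 6 cell groups and in free RNA, 1 point per mouse. Tnmd and Thbs4 chose the cells and are 0 by rule in the next 4 groups; Fmod, Kera, Scx, Mkx and Ptx4 lay higher in the members than in the other groups shown, whereas Comp lay higher in Cilp2 and Cemip cells, Acan and Col2a1 chondrocytes and free RNA.

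The members were set against 2 kinds of connective tissue cell from the same mice. Pi16 and Mfap5 fibroblasts, a widespread kind of adventitial fibroblast, had at least 2 Mfap5 UMIs, at least 1 of Pi16 and of collagen I, and none of Tnmd, Thbs4, Tbx3 and Acan; they numbered 1042 and 1225. Cilp2 and Cemip cells, which share a label marker with the members, had at least 2 Cilp2 UMIs, at least 1 of Cemip and of collagen I, and none of Tnmd, Thbs4 and Tbx3; they numbered 105 and 109, and their rule allowed Acan. UMIs were summed per mouse and cell group, and 17807 genes were tested with edgeR (n = 2 mice, Benjamini-Hochberg adjustment, mouse as a block). Median depths were 3835 and 4051 UMIs in Pi16 and Mfap5 fibroblasts and 5391 and 6917 in Cilp2 and Cemip cells. Those of the members were 4722 and 6537 UMIs. The tested genes come from the cells that the rules had sorted, so genes that go along with the rule genes differ in part by selection. The fit rests on 10 sums with 4 residual degrees of freedom.

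Against Pi16 and Mfap5 fibroblasts, 7.47% of the tested genes, 1330, passed an adjusted p of 0.05 in edgeR, 679 higher in the members (3.81%) and 651 lower (3.66%). Of the 1330, 1329 had the same direction in both mice. Without the mouse in the model 703 passed, and with each cell thinned to 1000 UMIs 587 of 13066 passed, of which 499 were among the 1330. Of the 587, 257 were higher in the members and 330 lower. The median log2 fold change over all tested genes was -0.04.

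Of 17 tested tendon matrix genes 9 were higher in the members and 5 lower, with a median log2 fold change of 1.90. Fmod was at 4590 and 4813 CPM in the members and 51.9 and 39.6 CPM in Pi16 and Mfap5 fibroblasts. Its log2 fold change was 6.65 ± 0.23 (SE from the edgeR F statistic, n = 2 mice, edgeR adjusted p = 4.9e-14). Kera was at 545 and 612 CPM against 4.07 and 11.8 CPM (6.21 ± 0.48, edgeR adjusted p = 0.00039). For both genes the members of either mouse lay above the other group in either mouse, and also above free RNA.

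The bases before the start site of these 2 genes and of Tnmd are shown because the 3 genes were high in the same cells. They are the 250 bases before the transcription start in RefSeq, build GRCm38.p6, on the plus strand, and they lie at chrX:133850758-133851007, chr1:134037004-134037253 and chr10:97606955-97607204. Capitals mark the E-box CANNTG, the kind of motif that Scleraxis and other basic helix-loop-helix factors bind, which reads the same pattern on both strands.
Tnmd: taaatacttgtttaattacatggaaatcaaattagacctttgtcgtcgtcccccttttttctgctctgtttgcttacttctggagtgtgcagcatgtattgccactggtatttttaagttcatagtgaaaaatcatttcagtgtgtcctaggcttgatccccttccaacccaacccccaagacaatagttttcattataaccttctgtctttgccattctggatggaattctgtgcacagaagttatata
Fmod: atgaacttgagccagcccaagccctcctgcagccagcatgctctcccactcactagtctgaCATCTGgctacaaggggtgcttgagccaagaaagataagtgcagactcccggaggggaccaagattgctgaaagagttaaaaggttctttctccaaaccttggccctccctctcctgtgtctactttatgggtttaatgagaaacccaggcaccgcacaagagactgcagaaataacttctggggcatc
Kera: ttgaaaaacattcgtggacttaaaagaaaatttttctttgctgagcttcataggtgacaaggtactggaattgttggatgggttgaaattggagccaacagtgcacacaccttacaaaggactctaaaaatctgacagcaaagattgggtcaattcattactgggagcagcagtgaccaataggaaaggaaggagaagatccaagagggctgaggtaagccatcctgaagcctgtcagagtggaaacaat
Fmod held 1 E-box, CATCTG, while Tnmd and Kera held none in this window. Of 32851 RefSeq windows of the same length, 66.2% held at least 1, so the match in Fmod is common among promoters and its absence says only that these letters are not in these windows.

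Other matrix genes of tendon were higher as well. Tnc, for tenascin-C, a protein of loaded and growing matrix, was at 157 and 105 CPM against 2.57 and 2.26 CPM (5.68 ± 0.84, edgeR adjusted p = 0.025). Ptx4, a pentraxin, was at 47.1 and 59.4 CPM against 0.643 and 1.04 CPM (5.90 ± 0.54). Comp, a thrombospondin that assists collagen assembly in tendon and cartilage, was at 538 and 487 CPM against 60.4 and 38.9 CPM (3.34 ± 0.18). Free RNA held Comp at a higher CPM than the members, 1106 and 1058 CPM. How much of the members' Comp came from free RNA was not tested. The same holds of Col11a1, a fibril collagen of cartilage, with 441 and 409 CPM in the members, 45.6 and 35.9 CPM in Pi16 and Mfap5 fibroblasts and 806 and 693 CPM in free RNA. Cnmd and Snorc, cartilage genes that are also plentiful in free RNA, did not differ between these groups by the test, with edgeR adjusted p values of 0.90 and 0.87; Cnmd was at 52.9 and 54.6 CPM in the members and 64.1 and 35.4 CPM in the other group.

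Col12a1, a collagen on the surface of tendon fibrils, was at 413 and 358 CPM against 59.6 and 47.8 CPM (2.82 ± 0.17), and Lox, the enzyme that starts collagen cross-links, at 487 and 499 CPM against 126 and 132 CPM (1.90 ± 0.15). Chodl, a membrane lectin, was at 23.5 and 32.1 CPM against 3.43 and 3.65 CPM (3.00 ± 0.50). The 5 list members that were lower were Clec3b, Dpt, Htra3, Col3a1 and Col5a1. Col3a1, the thin-fibril collagen of loose connective tissue, was at 7008 and 6679 CPM against 12397 and 12144 CPM (-0.88 ± 0.16). Col5a1 was at the threshold, and its call ended under 11 alternatives.

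Among the 12 tendon factors tested 3 were higher and 1 lower, a median log2 fold change of 0.43. Scx was at 51.5 and 61.8 CPM against 2.36 and 1.04 CPM (5.05 ± 0.42, edgeR adjusted p = 7.2e-10), from 35 and 77 UMIs in the members. Scx lies within Bop1 on the opposite strand, and Bop1 was at 92.6 and 97.2 CPM in the members and 18.9 and 12.7 CPM in the other group, so reads of the 2 genes may not be told apart. Mkx was at 63.2 and 69.0 CPM against 6.21 and 4.86 CPM (3.58 ± 0.32, edgeR adjusted p = 4.1e-09). Six2, a homeobox factor of connective tissue, was higher by 1.51 ± 0.32 on the log2 scale, and Gli1, which reports hedgehog signalling, was lower (-1.55 ± 0.43). With cells thinned to 1000 UMIs, the calls for Six2 and Gli1 ended; that for Gli1 also ended without the mouse in the model, in DESeq2 and with no condition on Tbx3 and Acan, and that for Six2 without the members that had UMIs of other cell types. Egr1, Egr2, Nfatc4, Etv4, Etv5, Tbx4, Tcf4 and Meis1 did not pass; Egr1, a factor induced by load and by dissociation, was at 603 and 503 CPM against 724 and 494 CPM.

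**Figure D2:**
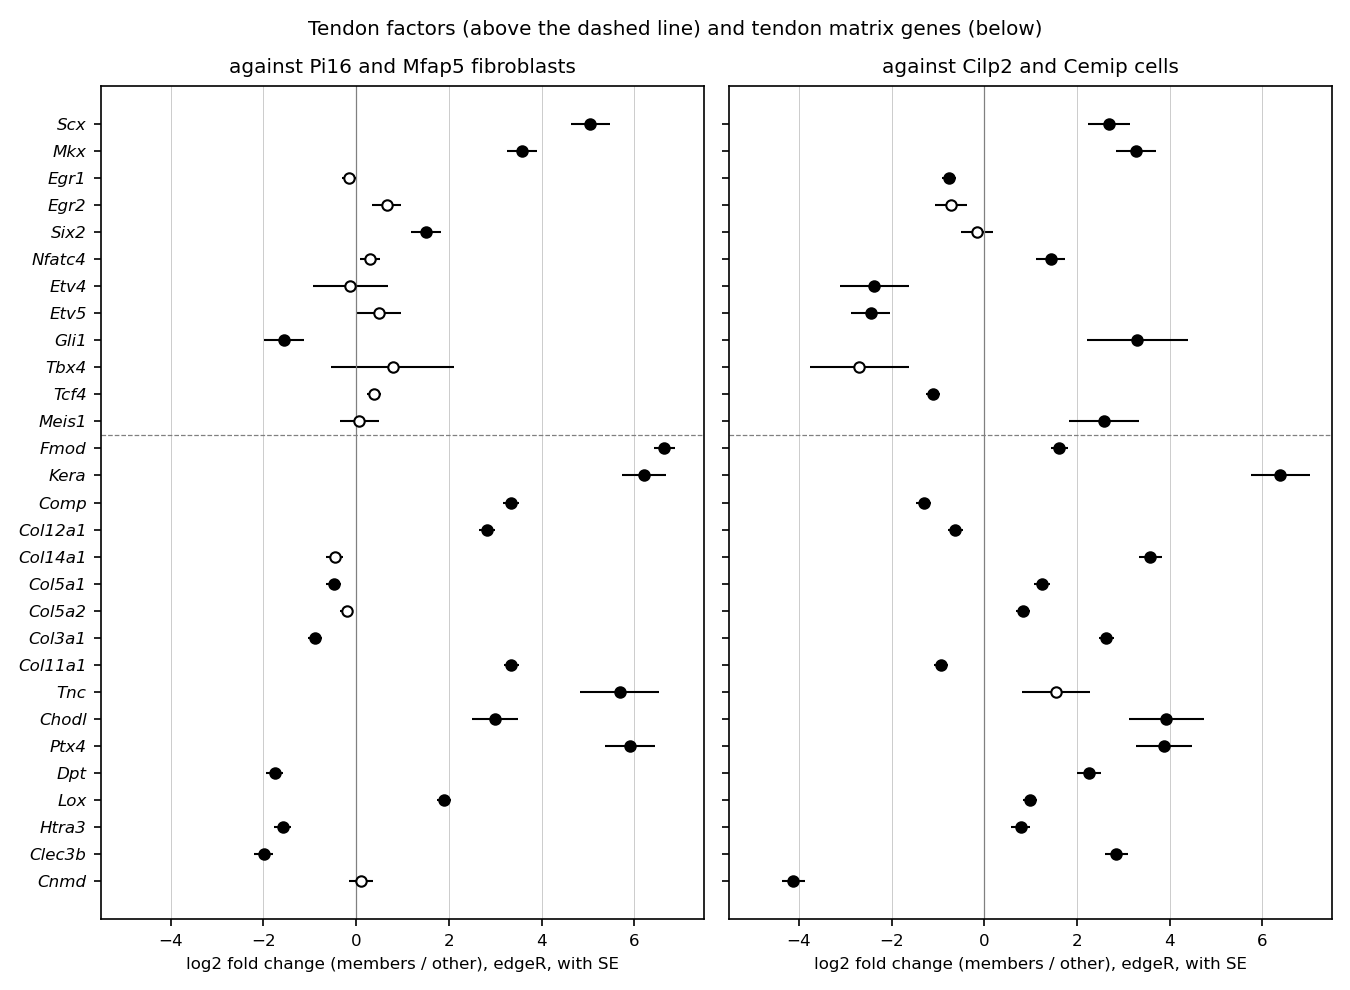
Log2 fold change of 12 tendon factors (above the dashed line) and 17 tendon matrix genes (below) in the members against each of the 2 other cell groups, with SE, from edgeR. Filled points passed an adjusted p of 0.05 and open points did not; Fmod at 6.65 and Kera at 6.21 lie farthest to the right on the left, and Kera at 6.39 on the right.

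Small leucine-rich proteoglycans, which bind collagen fibrils and set their width and spacing, were higher for 11 of 13 tested members, a median log2 fold change of 1.20. Beyond Fmod and Kera, Chad was at 232 and 232 CPM against 35.1 and 46.2 CPM (2.48 ± 0.18) and Prelp at 409 and 353 CPM against 86.1 and 61.6 CPM (2.32 ± 0.18). Podn was the only one of the 13 that was lower in this fit, by a log2 fold change of -1.10; it was named after its value was seen. Chad lies over Acsf2 on the opposite strand, and its level in free RNA, 793 and 1156 CPM, was above that of the members. With the mouse left out of the model, 9 of the 13 passed as higher.

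Of 14 mechanosensing genes 6 were higher and 2 lower, and 3 of 13 were higher and 2 lower with cells thinned; of 18 matricellular genes 6 were higher and 3 lower. Cilp, a matrix protein that binds TGF-beta, was at 1523 and 1916 CPM against 120 and 154 CPM (3.61 ± 0.29), and free RNA held 140 and 197 CPM. Ccn2, a matricellular protein induced by TGF-beta and YAP, was at 1109 and 948 CPM against 196 and 162 CPM (2.47 ± 0.17). Free RNA held 984 and 1026 CPM of Ccn2, a higher CPM than in the members of mouse 2. Ankrd1, a target of YAP and TAZ, was at 7.35 and 43.4 CPM against 1.5 and 0.174 CPM (4.95 ± 0.89), with 5 UMIs in mouse 1 and 54 in mouse 2, so most of it came from mouse 2. Piezo2, a stretch-gated channel, was at 42.6 and 68.2 CPM against 11.1 and 9.03 CPM (2.50 ± 0.27), with 64.5 and 56.6 CPM in free RNA, above the members of mouse 1. Mylk, the kinase that switches on non-muscle and smooth muscle myosin, was at 159 and 146 CPM against 16.5 and 20.3 CPM (3.00 ± 0.28) and was the only one of 8 contractile genes that passed.

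The signalling lists are given beside the 7.47% of all tested genes that passed. Of 14 FGF genes 2 were higher and none lower, and of 19 Wnt genes 4 higher and 3 lower. Of 12 TGF-beta genes 3 were higher and 1 lower, and of 17 BMP and GDF genes 2 higher and 1 lower. Of 9 genes of the insulin-like system 2 were higher and 3 lower, and of 5 PDGF genes 3 higher and none lower. Fgf9, a growth factor, was at 17.6 and 56.2 CPM against 1.5 and 2.26 CPM (4.24 ± 0.48). Igf1 and Igfbp3, a growth factor and a binding protein of the insulin-like system, were higher by 1.72 ± 0.18 and 2.53 ± 0.26 on the log2 scale, while Igfbp4 and Igfbp5 were lower (-1.99 ± 0.26 and -1.98 ± 0.17). Sfrp2, a secreted Wnt modulator, was at 1041 and 524 CPM against 81.9 and 65.6 CPM (3.29 ± 0.21), and its antisense neighbour Gm26771 was at 625 and 360 CPM. Wnt10b, a Wnt ligand, had no UMI in the members against 172 UMIs in Pi16 and Mfap5 fibroblasts; with 3 UMIs over both mice as the floor, it was at least 10.6-fold lower in the members, and its call ended with cells thinned (adjusted p = 0.16). Bambi, a decoy receptor of TGF-beta, rose by 2.44 ± 0.26 on the log2 scale, and Sema3a, a repellent of axons, was at 118 and 110 CPM against 20.6 and 19.8 CPM (2.46 ± 0.25). Of 14 nerve guidance genes 2 were higher and 4 lower, among the latter Sema3e (-2.44 ± 0.43) and Ntn1 (-1.35 ± 0.20); the call for Sema3e ended with cells thinned.

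Angptl7, a secreted protein of tendon and of the outflow tissue of the eye, was at 1450 and 1484 CPM against 27.2 and 37.5 CPM (5.52 ± 0.66, edgeR adjusted p = 0.014). It lies within Mtor on the opposite strand, and Mtor was at 1439 and 1510 CPM in the members and 57.9 and 69.3 CPM in the other group. The 2 genes had 986 and 979 UMIs in the members of mouse 1 and 1849 and 1881 in mouse 2, and the reads behind these counts cannot be told apart. Among the patterning factors, Meox1, a homeobox factor of the embryonic somite, was at 88.2 and 61.8 CPM against 4.71 and 5.56 CPM (3.79 ± 0.33). Of 35 such factors 4 were higher and 4 lower; the lower ones included Ebf2 (-2.94 ± 0.31) and Foxf1 (-3.24 ± 0.54). No listed Hox gene had enough UMIs for a test: Hoxd3 had 1 UMI in the members of each mouse, Hoxd8 and Hoxd9 had 1 in those of mouse 2, and the other ones had 0.

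General fibroblast genes were lower in the members than in Pi16 and Mfap5 fibroblasts. Of 12 tested, 11 were lower and none higher, with a median log2 fold change of -1.85; 11 were also lower with cells thinned and with the mouse left out of the model. Against Cilp2 and Cemip cells, 6 of the 12 were higher and 2 lower, a median log2 fold change of 2.045. With cells thinned, 5 were higher and 0 lower there. Part of this list is tied to the rule that chose the Pi16 and Mfap5 fibroblasts. Ly6c1, a surface antigen, was at 69.1 and 103 CPM against 853 and 818 CPM (-3.30 ± 0.19), and Anxa3, a membrane-binding annexin, at 13.2 and 17.7 CPM against 167 and 158 CPM (-3.43 ± 0.26). Some genes outside this list were lower as well. Among them, C3, Efemp1, Smpd3 and Ccl8 were named because their decreases were among the 10 largest. Whether they go along with the rule genes of the Pi16 and Mfap5 fibroblasts was not tested. C3, the central complement protein, had 34 and 40 UMIs in the members against 508 and 323 CPM (-3.37 ± 0.19). Complement genes were higher for 1 of 9 tested and lower for 4. Efemp1, an elastic fibre protein, was at 63.2 and 19.3 CPM against 484 and 376 CPM (-3.59 ± 0.23). Elastic fibre genes as a list were higher for 6 of 17 tested, Ltbp2 and Fbn2 among them, and lower for 3. Smpd3, a neutral sphingomyelinase, had 2 and 1 UMIs in the members against 57.0 and 60.6 CPM (-5.29 ± 0.51). The chemokine Ccl8 had 3 and 2 UMIs in the members against 49.1 and 63.7 CPM (-4.46 ± 0.44), and Cxcl12 was lower by -1.56 ± 0.19. Listed chemokine and cytokine genes were higher for 1 of 15 tested and lower for 5.

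Against Cilp2 and Cemip cells, 12.4% of the tested genes, 2215, passed in edgeR, 1092 higher in the members (6.13%) and 1123 lower (6.31%). Of the 2215, 2209 had the same direction in both mice, which again follows in part from the call. Without the mouse in the model 1337 passed, and with cells thinned 729. The median log2 fold change over all tested genes was 0.06. Both comparisons use the same members, so their values are given side by side and not as a replicate of one another.

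Of 12 tendon factors 5 were higher and 4 lower in the members, a median log2 fold change of -0.44; with cells thinned 1 was higher and 2 lower of 11. Scx and Mkx were among the higher ones, and Etv4 (-2.37 ± 0.74), Etv5 (-2.45 ± 0.42), Egr1 (-0.76 ± 0.15) and Tcf4 (-1.11 ± 0.15) were the lower ones. Of 13 small leucine-rich proteoglycans 7 were higher, Fmod and Kera among them, and 3 lower: Omd (-2.21 ± 0.18), Chad (-1.80 ± 0.17) and Lum (-0.79 ± 0.20). The call for Etv4 ended under 7 alternatives, and those for Egr1 and Lum with cells thinned and without the mouse in the model. Mkx was at 63.2 and 69.0 CPM against 4.96 and 9.64 CPM (3.27 ± 0.43, edgeR adjusted p = 2.1e-06). Scx stood at 11.6 and 8.44 CPM in Cilp2 and Cemip cells, from 7 UMIs in each mouse (2.68 ± 0.45, edgeR adjusted p = 6.9e-05), and this call ended with cells thinned to 1000 UMIs (1.68, adjusted p = 0.44). Kera had no UMI in the Cilp2 and Cemip cells of mouse 1 and 12 in those of mouse 2, against 371 and 762 in the members (6.39 ± 0.63). Fmod differed less, with 1387 and 1984 CPM in Cilp2 and Cemip cells (1.62 ± 0.18). Of 17 tendon matrix genes 12 were higher and 4 lower, a median log2 fold change of 1.54. Collagens of soft connective tissue were among the higher ones: Col3a1 was at 7008 and 6679 CPM against 1218 and 1214 CPM (2.63 ± 0.17), and Col14a1 at 494 and 411 CPM against 38.1 and 43.4 CPM (3.59 ± 0.25). The 4 lower ones were Cnmd (-4.12 ± 0.25), Comp (-1.31 ± 0.16), Col11a1 (-0.94 ± 0.15) and Col12a1 (-0.62 ± 0.16), whose call ended under 3 alternatives, among them the model without the mouse.

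Cartilage genes were lower in the members. Of 13 tested genes of fibrocartilage and the tendon insertion 12 were lower and Cilp alone was higher, a median log2 fold change of -2.63. Sox6, a chondrocyte factor, was at 10.3 and 11.2 CPM against 283 and 240 CPM (-4.39 ± 0.26). Ucma, a matrix protein of cartilage, was at 23.5 and 9.63 CPM against 566 and 863 CPM (-5.45 ± 0.61). Ibsp, a bone and mineralizing cartilage protein outside this list, had 2 and 3 UMIs against 209 and 436 CPM (-6.83 ± 0.48). Cilp was at 1523 and 1916 CPM against 6.62 and 33.8 CPM (6.44 ± 0.40). The members were required to lack Acan and the Cilp2 and Cemip cells were not, so this difference follows in part from the rule. Without the condition on Tbx3 and Acan, 8 of the 13 were lower, and the call for Ucma ended. The calls for the tendon matrix genes Cnmd, Comp and Col11a1, given above, also ended. Against Pi16 and Mfap5 fibroblasts, which also lacked Acan, 3 of the 13 were higher and none lower, and 11 of 13 were higher without the condition.

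**Figure D3:**
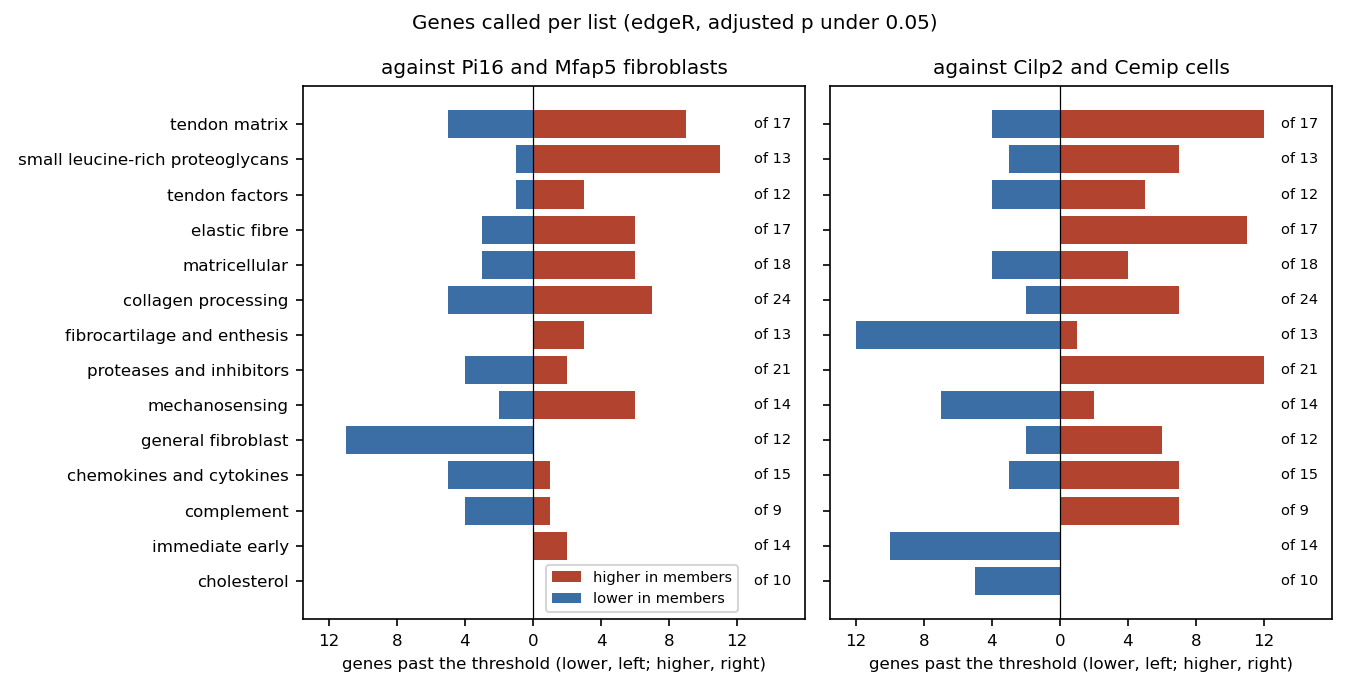
Number of genes per list that passed an adjusted p of 0.05 in edgeR, lower in the members to the left and higher to the right, with the number tested at the right edge, for both comparisons. General fibroblast genes lie to the left against Pi16 and Mfap5 fibroblasts (11 of 12), and fibrocartilage genes to the left against Cilp2 and Cemip cells (12 of 13).

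Elastic fibre genes were higher in the members than in Cilp2 and Cemip cells for 11 of 17 tested, and none was lower. Mfap4 was at 973 and 1920 CPM against 41.4 and 118 CPM (4.29 ± 0.34), Fbln2 at 363 and 445 CPM against 31.4 and 30.1 CPM (3.87 ± 0.24) and Fbln1 at 338 and 334 CPM against 34.8 and 30.1 CPM (3.53 ± 0.21). Matrix proteases and their inhibitors were higher for 12 of 21 and lower for none in edgeR; Serpinf1, for the anti-angiogenic factor PEDF, was at 2905 and 3468 CPM against 511 and 568 CPM (2.70 ± 0.16). With cells thinned, 8 of the 21 were higher and 2 lower. Of 18 matricellular genes 4 were higher and 4 lower. Postn and Tgfbi, matrix proteins induced by TGF-beta, were higher by 3.87 ± 0.34 and 3.32 ± 0.22 on the log2 scale, and Spp1, for osteopontin, was lower (-3.84 ± 0.38).

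Of 15 chemokine and cytokine genes 7 were higher in the members and 3, Kitl, Lif and Nfkbia, lower; without the mouse in the model 4 were higher and none lower. Ccl2, which attracts monocytes, was at 740 and 431 CPM in the members against 8.27 and 8.44 CPM (6.23 ± 0.36), and free RNA held 298 and 245 CPM; its antisense neighbour Gm17268 was at 722 and 438 CPM. The Ccl2 level of the members is a sum over unlike cells. As given below, Ccl2 differed widely among members by cluster and was low in the cluster with the largest share of them. Il33, an alarm cytokine, was at 147 and 65.0 CPM against 6.62 and 1.21 CPM (4.95 ± 0.43). Of 9 complement genes 7 were higher and none lower, with Serping1, the C1 inhibitor, at 1741 and 1584 CPM against 156 and 165 CPM (3.5 ± 0.23); without the mouse in the model 3 were higher and 1 lower. Of 14 immediate early genes, which dissociation also induces, 10 were lower and none higher in edgeR, and 5 with cells thinned. Nr4a1 was at 512 and 393 CPM against 980 and 1113 CPM (-1.09 ± 0.17).

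Genes of most signalling lists went both ways. Of 19 Wnt genes 4 were higher and 4 lower, and of 17 BMP and GDF genes 5 higher and 4 lower. Of 14 FGF genes 4 were higher and 5 lower, and of 14 nerve guidance genes 7 higher and 2 lower. Of 5 PDGF genes 3 were higher and none lower. Sfrp2 was at 1041 and 524 CPM against 6.62 and 13.3 CPM (6.27 ± 0.33) and the Wnt antagonist Dkk2 at 165 and 171 CPM against 3.31 and 9.64 CPM (4.73 ± 0.34). Sema3a was at 118 and 110 CPM, against 2 and 1 UMIs in the other cells (5.89 ± 0.51). Igf1 and Igfbp6 were higher by 2.56 ± 0.23 and 3.35 ± 0.23. Bmp2, a ligand that drives cartilage and bone, was lower, at 98.5 and 77.9 CPM against 612 and 432 CPM (-2.40 ± 0.18), and so was Gdf5, a joint factor (-4.03 ± 0.67). Meox1 was at 88.2 and 61.8 CPM, against 2 and 1 UMIs (5.26 ± 0.55). Of 14 mechanosensing genes 2 were higher, Ankrd1 and Itgbl1, and 7 lower, among them Piezo2, at 42.6 and 68.2 CPM against 185 and 180 CPM (-1.50 ± 0.24), Itga10 (-2.09 ± 0.27) and Yap1 (-0.91 ± 0.21); with cells thinned none was higher and 4 of 13 were lower, and the call for Yap1 ended. Ankrd1, Meox2 and Lmx1b had no UMI in Cilp2 and Cemip cells and 59, 28 and 29 in the members. With both mice pooled, they were at least 14.6-fold, 6.95-fold and 7.20-fold higher at a floor of 3 UMIs. For Ankrd1 54 of these UMIs came from mouse 2. In mouse 1 the members held it at 7.35 CPM, where 3 UMIs in Cilp2 and Cemip cells would be 4.96 CPM. Cdkn1c, an inhibitor of the cell cycle, was lower in the members, at 196 and 204 CPM against 971 and 929 CPM (-2.09 ± 0.17).

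The members did not form a cluster of their own. Cells of both mice were clustered without the rule genes and label markers, and members fell into 10 of 23 clusters. Cluster 2 held 104 members (34.1%), cluster 6 78 (25.6%), cluster 7 59 (19.3%), cluster 9 39 (12.8%) and cluster 4 12 (3.93%), and they made up 4.43%, 4.99%, 4.12%, 4.56% and 0.613% of the cells of these clusters. Cluster 2 held 532 Pi16 and Mfap5 fibroblasts while cluster 9 held 140 Acan and Col2a1 chondrocytes and 62 Cilp2 and Cemip cells, and cluster 4 held 502 and 89, so members lay among different kinds of cell. Tnmd was highest in cluster 18, which had 152 cells, 138 of them from mouse 1, and held 1 member. In it 88.8% of cells had a Tnmd UMI, and Tnmd stood at 1309 CPM and Thbs4 at 15.2 CPM. The clusters are described with no test, since their cells' genes made them.

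In each of the 4 clusters with most members, Fmod and Scx were higher in the members than in the other cells of that cluster. Fmod was at 4572 and 4420 CPM in members of cluster 2, 3756 and 5492 in cluster 6, 5243 and 6031 in cluster 7 and 7790 and 4909 in cluster 9, against 328 to 544 CPM in the other cells of clusters 2, 6 and 7 and 2014 and 1924 CPM in those of cluster 9. Scx was between 33.5 and 78.0 CPM in the members of these clusters and between 4.44 and 14.1 CPM in the other cells. Mkx lay between 48.1 and 167 CPM in the members of clusters 2, 7 and 9, but at 24.0 and 51.9 CPM in those of cluster 6, where the other cells of mouse 1 had 17.6 CPM.

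Other genes differed among members by cluster. Members of cluster 6 held Ccl2 at 1897 and 1607 CPM and Cxcl1, which attracts neutrophils, at 2692 and 1470 CPM, against 9.91 and 11.1 CPM and 139 and 39.9 CPM in members of cluster 2. The immediate early gene Fos was at 2165 and 1726 CPM in members of cluster 6, 1674 and 1219 CPM in cluster 7, 94.1 and 173 CPM in cluster 2, and 245 and 205 CPM in cluster 9. Members of cluster 9 had more Comp, at 825 and 1462 CPM against 144 to 461 CPM in members of the other 3 clusters, more Chad, at 568 and 595 CPM, and less Kera and Sfrp2, at 368 and 251 CPM and at 66.9 and 19.9 CPM. Coch, a matrix protein first known from the inner ear, was at 1404 CPM in the 17 members of cluster 9 in mouse 1 and at 66.2 CPM in the 22 in mouse 2, so the mice did not match there.

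**Figure D4:**
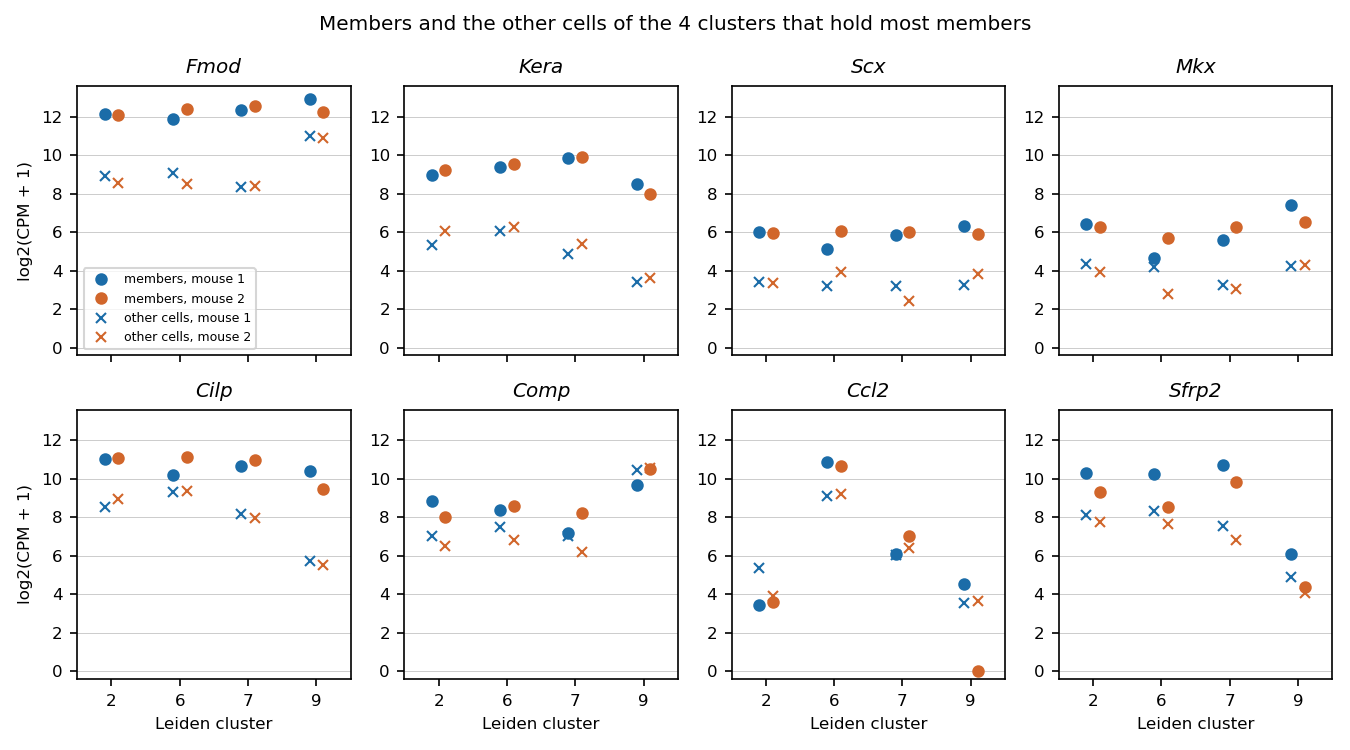
Level of 8 genes as log2(CPM + 1) in the members (circles) and the other cells (crosses) of the 4 clusters with most members, 1 point per mouse. Fmod, Kera and Scx lie higher in the members than in the other cells in every cluster shown, Ccl2 is high in cluster 6, and Comp is highest in cluster 9 in members and other cells alike.

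Markers of other cell types were measured in the members. Of 43 markers of other types, chondrocyte markers not among them, at least 2 UMIs were found in 32 members of mouse 1 (25.6%) and 36 of mouse 2 (20%). At least 2 UMIs of the 7 chondrocyte markers were found in 35 and 61 members, which no alternative removed. These markers summed to 198 and 180 CPM, against 314 and 175 CPM in Pi16 and Mfap5 fibroblasts, 2883 and 3767 CPM in Cilp2 and Cemip cells and 10353 and 11276 CPM in Acan and Col2a1 chondrocytes; Acan is 0 by rule and Matn1 had no UMI. The 5 endothelial markers summed to 95.6 and 31.3 CPM, the 5 macrophage markers to 14.7 and 18.5 CPM and the 5 neutrophil markers to 210 and 20.9 CPM, the last mainly in mouse 1. The 5 fibroblast markers Col1a1, Col1a2, Dcn, Pdgfra and Lum, of which the first 2 are in the rule, summed to 55590 and 54531 CPM. Pdgfra, the usual fibroblast receptor, was at 124 and 129 CPM in the members and 288 and 323 CPM in Pi16 and Mfap5 fibroblasts. Without the members that had 2 UMIs of the 43 markers, 237 cells were left and 1180 and 2033 genes passed in the 2 comparisons; the calls for Fmod, Kera, Scx and Mkx stood in both.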

How the data were processed

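Single-cell RNA was measured in 2 mice, 1 library each. The authors deposited raw whole-number counts per gene and barcode, with no normalization; the submitters' processing notes name STAR, Cell Ranger 7.0.0 and GRCm39, with no roles. Whether counting used strand or molecular tags could not be learned from the labels or headers, so the reads of overlapping genes on opposite strands may not be told apart. The count tables held 56953 genes and 575908 and 610731 barcodes, and the cells used had at least 1000 counts, at least 300 genes and at most 15% mitochondrial counts.

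The members, gene lists and comparison groups were chosen with earlier results of these data known. Counts were summed per mouse and cell group (at least 20 cells in each mouse) and tested in R 4.3.3 with edgeR 4.0.16 (quasi-likelihood, TMM, filterByExpr, robust), with the Benjamini-Hochberg adjustment over all tested genes. Mouse was a block because each animal supplied all groups of its library; the differences between the mice correlated between pairs of groups at 0.0935 to 0.486. The fit held the members, Pi16 and Mfap5 fibroblasts, Cilp2 and Cemip cells, Acan and Col2a1 chondrocytes and other Pdgfra cells. A planned comparison with Coch and Tbx3 cells was not made, since these numbered 11 and 5. The 15 genes of the rules and label markers stayed in the totals and had no test. Scrublet called 0 doublets in either mouse and was taken as not having worked, so doublets stayed in; an alternative left out the highest-scoring cells, 0.8% per 1000 cells.

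Named genes were, per comparison, the 10 with the largest fold change in each direction among called genes with at least 50 CPM in one group, all tendon factors and tendon matrix genes, and up to 4 of each other list; the text gives a selection of these, chosen with their values known. Clusters came from scanpy 1.11.5 (2000 variable genes, 30 components, 15 neighbours, Leiden resolution 1). Scripts were tested on simulated data. Some listed genes are not reported here. Alternatives changed the thresholds, filters, normalization, block and test, and DESeq2 1.42.0 was the second tool.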

Additional observations from a re-analysis of the deposited data

How the results depend on the processing

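The rule found between 234 cells (at least 3 Tnmd UMIs) and 498 (no condition on Tbx3 and Acan). Genes called against Pi16 and Mfap5 fibroblasts numbered 1330, but 2216 with no condition on Tbx3 and Acan, 587 with cells thinned to 1000 UMIs and 703 without the mouse block; the other alternatives gave 1180 to 1607. Against Cilp2 and Cemip cells 2215 were called, but 729 with cells thinned and 1337 without the mouse block, and 1554 to 2271 otherwise. Of the 703 and 1337 genes called without the block, 700 and 1320 were among those called with it. Thinning tests fewer genes on fewer counts and put the median log2 fold change of all tested genes at -0.13 and 0.13. Among named genes called in the main result or under the alternative, the log2 fold change reversed in 11 cases. Sign changes of genes called in neither were not counted. With no condition on Tbx3 and Acan, values against Pi16 and Mfap5 fibroblasts became 1.55 for Tll1, 3.11 for Snorc, 3.33 for Col9a3, 2.77 for Epcam, 3.06 for S100b and 2.55 for Ibsp, and against Cilp2 and Cemip cells 0.29 for Col9a3 and 0.20 for Snorc. With at least 1 Tnmd UMI they became 0.22 for Laptm5 and 1.35 for Il1b against Pi16 and Mfap5 fibroblasts. Thinning gave -1.25 for Vegfb against Cilp2 and Cemip cells. The causes of these reversals were not tested. Leaving out either mouse kept the direction of every named fold change that had passed, but not of some that had not, such as Etv5, Nfatc4, Cnmd and Egr1 against Pi16 and Mfap5 fibroblasts; it leaves 1 sum per group and no residual degrees of freedom, so no calls could be counted. The genes that had passed were called with both mice, so their kept direction follows in part from the call. The alternatives on 2 UMIs of other types and on shared barcodes were added after the data were seen. With 2.41 to 4.41 CPM as the level of 3 UMIs in the members, levels below that could not be measured.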
